A study of Rattus norvegicus with 24 samples.

Results

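Myostatin, activin and Smad signalling was followed through 7 genes of the rat tibialis anterior, a muscle of the lower hind limb that lifts the foot: Mstn, Fst, Inhba, Acvr2a, Acvr2b, Smad3 and Smad7. The genes were chosen by symbol for their place in the pathway, out of 15273 gene symbols in the transcript table. The choice was made with earlier results of these data known. Male Wistar rats carried an implanted pulse generator that made the left dorsiflexor muscles contract once a day against the partly recruited calf muscles, a high-load regimen named SpillOver. Trained left muscles were taken after 2, 10, 20 or 30 days, 1 h after the last bout, together with the unstimulated right muscle of the same rat. The data are poly-A RNA-seq of 24 muscles from 12 rats, 3 rats per time point, and the 12 contralateral muscles formed 1 control group. The controls came from the operated and trained animals themselves, muscles of the sham group were not analysed here, and the effect of the last bout and that of the earlier training cannot be told apart.

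Myostatin, the product of Mstn, is a growth factor secreted by muscle fibers that restrains muscle mass. Like activin A, a dimer of the Inhba product, it binds the type II receptors encoded by Acvr2a and Acvr2b, which recruit a type I receptor that phosphorylates Smad2 and Smad3. These then enter the nucleus with Smad4, while follistatin (Fst) traps the ligands outside the cell and Smad7 blocks the signal at the receptor.

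The 24 libraries held between 1478890 and 2611920 fragments that could be recovered as whole numbers from the deposited values, and the mitochondrial share of the values lay between 23.4% and 43.9%. The fiber markers Ckm, Acta1, Mb, Tnnt3, Tnni2, Actn3, Myh4 and Myh7, 8 of 8, were in the table, with a summed level of 83542 to 96471 rescaled TPM in the controls and 61759 to 99468 in the trained muscles. The sum joins markers that moved in opposite directions. By the test described below, 4, 4, 4 and 3 of the 8 were lower at 2, 10, 20 and 30 days, and 0, 2, 1 and 1 higher. The shares over all genes are given with that test. Mean Actn3 was 3569 in the controls and 850 in the 30-day trained muscles, and mean Mb 6694 and 10437. TPM is a level scaled for transcript length, so levels can be set side by side between genes. It was rescaled here between muscles by a median-of-ratios factor. Markers of some other cells moved with training: the 5 fibroblast markers summed to 30.6 to 105 rescaled TPM in the controls and 119 to 421 in the trained muscles, and the 5 macrophage markers to 3.77 to 11.6 and 13.4 to 36.0. Much of the fibroblast sum was Col1a1 (mean 32.9 in controls, 210 at 10 days), while mean Pi16 was 2.71 in controls and 2.07 at 2 days. Endothelial sums lay above the controls at 20 days only (37.7 to 39.1 against 20.9 to 33.8). Sums for satellite cells, neutrophils, smooth muscle and pericytes, Schwann cells, adipocytes and red blood cells overlapped with the controls at every time. The part of these cells in the results below was not tested. In whole muscle, fewer cells of a type and less RNA per cell cannot be told apart.

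Smad3 is shown by its sequence because it was the member that fell with the least dependence on the processing. Its gene lies on chromosome 8 of Rnor_6.0, from 68569530 to 68678349 on the minus strand, and 1 transcript represents it in the table. The 250 bases before its start in RefSeq (GRCr8, chr8:73132325-73132574, minus strand) are printed 5′ to 3′, with the GC box in capitals.
Smad3: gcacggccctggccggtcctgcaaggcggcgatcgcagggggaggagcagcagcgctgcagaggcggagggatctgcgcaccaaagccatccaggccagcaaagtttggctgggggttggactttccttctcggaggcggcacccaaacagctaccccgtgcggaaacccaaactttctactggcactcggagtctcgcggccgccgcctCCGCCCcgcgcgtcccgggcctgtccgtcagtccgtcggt
This stretch is 68.4% G and C. The GC box GGGCGG, a binding sequence of Sp1 read here on the opposite strand, was found in 30.5% of the 33469 RefSeq promoters of the same length. Promoters of 5 of the 7 members matched by symbol, and Acvr2b and Smad7 each held the GC box at 2 places. Mstn and Fst had no match, so their promoters were not searched. The Smad palindrome GTCTAGAC (0.173% of all promoters), CAGACA (17.2%), the E-box CACGTG (5.59%), the cyclic AMP response element TGACGTCA (1.59%) and the AP-1 site TGANTCA (6.34%), all searched on both strands, were in none of the 5 windows.

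Smad3 was lower in trained muscle at 10, 20 and 30 days, Mstn at 20 and 30 days, and Acvr2a at 2, 20 and 30 days. Mstn was higher at 2 days, and Fst at 2 and 10 days. The calls of Acvr2a, those of Mstn at 2 and 30 days and that of Fst at 10 days depended on the fit or on single muscles, as given below. The tests were made with limma on log2(rescaled TPM + 1) over the 11196 genes that reached 1 rescaled TPM in 3 or more muscles, with Benjamini-Hochberg adjustment and a threshold of 0.05, and 5 of the 7 members were among them. At 2 days 2 members rose and 1 fell, where 28.9% of all tested genes changed, 15.4% rising and 13.5% falling. At 10 days 1 rose and 1 fell, where again 28.9% of all genes changed, 15.6% rising and 13.3% falling. At 20 days 3 fell, where 21.4% of all genes changed, 11.7% rising and 9.64% falling. At 30 days 3 fell, where 20.6% changed, 11.1% rising and 9.46% falling. No member rose at 20 or 30 days with limma, and at an unadjusted p under 0.05 the counts of risen members were 1 and 0, also by voom on the recovered fragments. The median log2 fold change of the 5 members was -0.07, 0.14, -0.41 and -0.39 at the 4 times, against -0.01, -0.03, -0.03 and -0.01 over all genes.

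**Figure D1:**
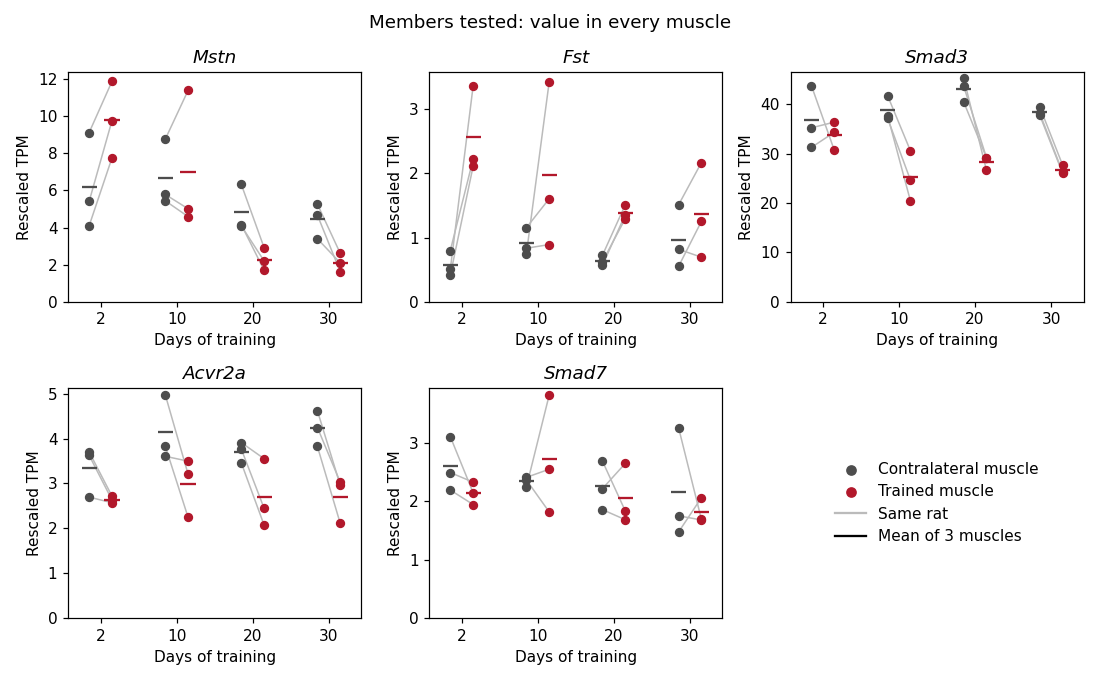
Rescaled TPM (vertical axis) in every muscle by days of training (horizontal axis) for the 5 members tested, with grey lines joining the muscles of 1 rat and short bars at the mean of 3 muscles. Trained muscles lay below all 12 controls for Mstn at 20 and 30 days and for Smad3 at 10, 20 and 30 days, and above all 12 for Fst at 2 days.

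Of the 2 ligands among the members, Mstn (Mstn-201, chromosome 9, 53309598 to 53315915, minus strand) was the more abundant. It stood at 3.39 to 9.13 rescaled TPM in the 12 controls, with a median of 5.34 and a mean of 5.54 ± 1.80 (SD, n = 12), from 59 to 224 fragments a muscle. The 2-day trained muscles held 11.9, 7.76 and 9.77, and the 10-day muscles 11.4, 5.01 and 4.59. The 20-day muscles held 2.91, 1.69 and 2.19, and the 30-day muscles 2.09, 2.61 and 1.61. Each 2-day muscle was above the other muscle of its rat, although 1 of them lay below the highest control, and at 10 days 1 rat of 3 had the higher value on the trained side. All 6 muscles of the 2 later times were below every control, which 4.81% of all genes showed at 20 days and 6.08% at 30 days.

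The ratio of the trained to the control mean of Mstn was thus 1.77, 1.26, 0.408 and 0.380 at 2, 10, 20 and 30 days. Mstn rose by a log2 fold change of 0.75 (SE 0.23, adjusted p = 0.0143) at 2 days. It did not pass at 10 days (0.24, adjusted p = 0.473), where the estimate with animal as a block was -0.01. It fell at 20 days by 0.98 (adjusted p = 0.00263) and at 30 days by 1.04 (adjusted p = 0.00178). The later falls passed also when each trained muscle of that time was left out in turn, whereas the early rise was not called without 2-day replicate 1 (0.61, adjusted p = 0.0832) or replicate 3 (0.74, adjusted p = 0.0579). Against the 3 contralateral muscles of the same time only, the 2-day rise had an adjusted p of 0.125, and the falls at 20 and 30 days had adjusted p of 0.0482 and 0.0725. The mitochondrial share was 39.9% to 43.9% in the 30-day trained muscles and 43.7%, 34.6% and 29.7% in the 30-day contralateral ones. The part of this in the 30-day values was not tested.

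Between trained groups, Mstn differed in 3 of the 6 contrasts on the rescaled values. From 2 to 20 days it fell by 1.73 on the log2 scale (adjusted p = 0.000495, where 8.05% of all genes changed), and from 2 to 30 days its log2 change was -1.79 (adjusted p = 0.000219, where 15% changed). From 10 to 30 days it fell by 1.28 (adjusted p = 0.0137, where 3.94% changed), which was not called with animal as a block (-0.79, adjusted p = 0.178). The difference from 10 to 20 days missed the threshold (-1.21, adjusted p = 0.0773). In the 3 contrasts without a member called, from 2 to 10, 10 to 20 and 20 to 30 days, 1.93%, 0.17% and 0.0357% of all genes changed. The other 4 members did not pass in any of the 6 contrasts on the rescaled values. On the values as deposited, 6 of 30 member and contrast pairs passed and not 3, the added ones being Fst from 2 to 30 days (-0.82, adjusted p = 0.0192), Smad3 from 2 to 30 days (-0.65, adjusted p = 0.00423) and Smad7 from 10 to 30 days (-0.60, adjusted p = 0.0438). The factor that separates the 2 scales was 1.05 to 1.10 in the 2-day trained muscles, 1.02 to 1.14 in the 10-day ones and 0.807 to 0.915 in the 30-day ones. The deposited scale therefore sets every gene lower at 30 days, relative to 2 and 10 days, than the rescaled one. The part of this in the added calls was not tested.

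Inhba (Inhba-201, chromosome 17, 51898217 to 51912496, minus strand) was close to the limit of detection. It was counted by 0 to 6 fragments in each control, 22 in all 12, and by 0 to 8 in each trained muscle. The 2-day trained muscles held 2, 5 and 5 fragments, and the 10-day muscles 2, 0 and 8. At 20 days there were 2, 1 and 2, and at 30 days 4, 2 and 0. The groups overlapped at every time, and Inhba was not among the genes tested. Without the filter on low values its adjusted p ran from 0.363 to 0.962, so that no difference was detectable at this depth.

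**Figure D2:**
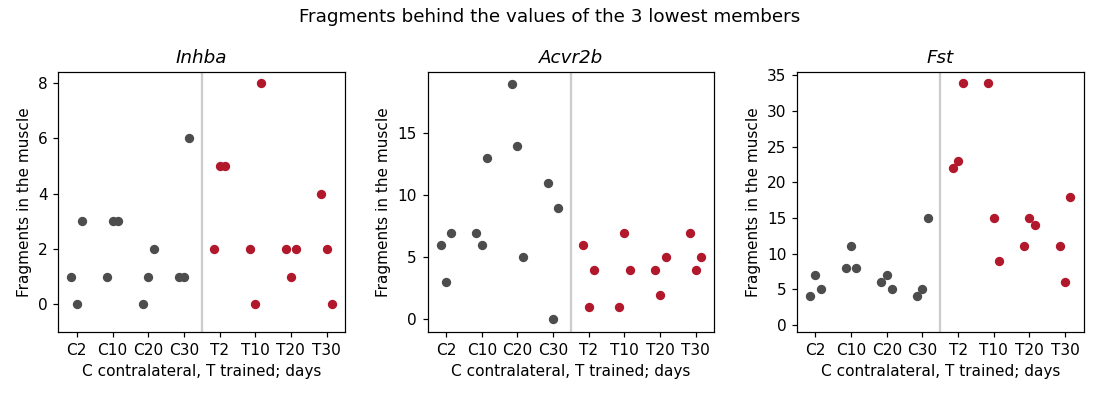
Fragments counted in each muscle (vertical axis) for Inhba, Acvr2b and Fst, with contralateral muscles (C, grey) and trained muscles (T, red) by day of training. Inhba reached at most 8 fragments and Acvr2b at most 19, while the 2-day Fst counts of 22 to 34 all exceeded the control maximum of 15.

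Fst, the antagonist (Fst-201, chromosome 2, 46538700 to 46544457, minus strand), rose early. In the controls it lay between 0.416 and 1.51 rescaled TPM with a median of 0.736 and a mean of 0.771 ± 0.303 (SD, n = 12), from 4 to 15 fragments. The 2-day trained muscles held 2.11, 2.22 and 3.36, and the 10-day muscles 3.43, 1.61 and 0.890. The 20-day muscles held 1.30, 1.51 and 1.36, and the 30-day muscles 1.25, 0.693 and 2.17. All 3 values at 2 days were above every control, as for 8.57% of all genes, and the later groups overlapped with the controls. The trained side was the higher in 11 of the 12 rats.

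The mean of Fst was 3.33 times that of the controls at 2 days, and its log2 fold change was 1.01 (SE 0.19, adjusted p = 0.000297). This scale, with 1 added to each value, understates changes at so low a level, and voom on the recovered fragments gave 1.70 (adjusted p = 0.000109). At 10 days it rose by 0.68 (adjusted p = 0.00962), a call that rested on replicate 1: without it the value was 0.34 (adjusted p = 0.232). With animal as a block the 10-day value was 0.55 (adjusted p = 0.0811). At 20 and 30 days the values were 0.45 (adjusted p = 0.10) and 0.39 (adjusted p = 0.154). No contrast of Fst between trained groups passed in the same fit, with adjusted p from 0.0867 to 0.984, but the one from 2 to 30 days did on the values as deposited, as given above.

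**Figure D3:**
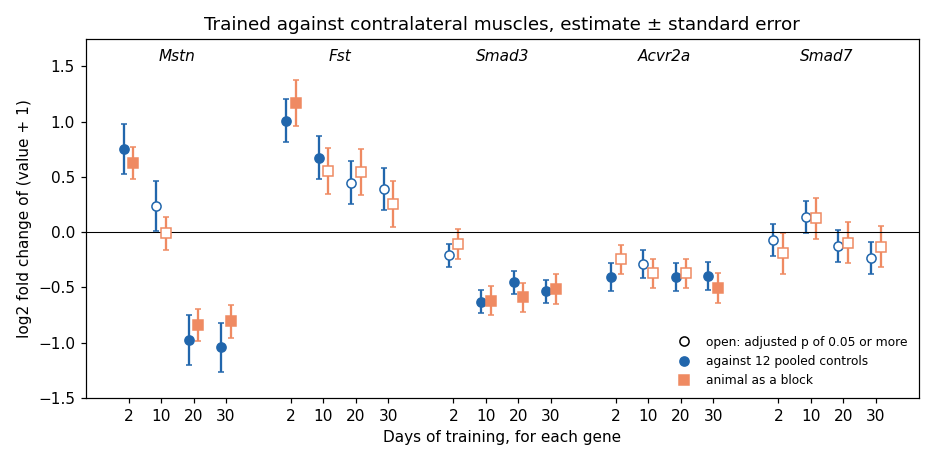
Log2 fold change of (rescaled TPM + 1), trained against contralateral (vertical axis), with standard errors, at each day of training for 5 members, from the fit with 12 pooled controls (circles) and the fit with animal as a block (squares). Filled symbols have an adjusted p under 0.05: Mstn changes sign between 2 and 20 days, and Smad3 is below 0 and filled in both fits at 10, 20 and 30 days.

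The 2 type II receptors differed in level. Acvr2a (Acvr2a-201, chromosome 3, 32947378 to 33034282, plus strand) had 2.69 to 4.98 rescaled TPM in the controls, with a median of 3.79 and a mean of 3.86 ± 0.577 (SD, n = 12), from 97 to 196 fragments. The trained means were 2.64 ± 0.0742, 2.98 ± 0.655, 2.69 ± 0.772 and 2.70 ± 0.512 (SD, n = 3 each) at 2, 10, 20 and 30 days. The trained muscle was the lower one in all 12 rats, although every trained group overlapped with the pooled controls. Its log2 fold changes were -0.41 (adjusted p = 0.0173), -0.29 (0.0874), -0.41 (0.0217) and -0.39 (0.0279), with an SE of 0.13 each.

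The fall of Acvr2a was small, and its call depended on the fit. On the values as deposited the adjusted p was 0.126 at 2 days and 0.0694 at 20 days. With animal as a block the values were -0.25 (adjusted p = 0.214), -0.37 (0.0668), -0.37 (0.0729) and -0.51 (0.0261) at 2, 10, 20 and 30 days. The call at 30 days was lost without trained replicate 1 (-0.27, adjusted p = 0.212) or 2 (-0.45, adjusted p = 0.0521), that at 20 days without replicate 1 (adjusted p = 0.105) or 2 (adjusted p = 0.198), and that at 2 days without replicate 2 (adjusted p = 0.0931) or 3 (adjusted p = 0.0655).

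Acvr2b (Acvr2b-201, chromosome 8, 128087345 to 128118746, plus strand) did not pass the filter. It lay between 0 and 1.21 rescaled TPM in the controls with a median of 0.417, from 0 to 19 fragments, 100 in all 12. The trained muscles held 6, 1 and 4 fragments at 2 days, 1, 7 and 4 at 10 days, 4, 2 and 5 at 20 days and 7, 4 and 5 at 30 days. All groups overlapped, and the trained muscle was the lower one in 10 of 12 rats. The trained means were 0.398, 0.465, 0.432 and 0.694 of the control mean at 2, 10, 20 and 30 days. Without the filter the log2 fold changes were -0.32, -0.28, -0.29 and -0.14, with adjusted p from 0.176 to 0.657, so no difference was detectable at this depth. That scale, with 1 added to each value, understates changes at so low a level.

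Smad3, the receptor-activated Smad of the set, was the most abundant member and fell from 10 days on. The controls lay between 31.3 and 45.3 rescaled TPM with a median of 38.8 and a mean of 39.3 ± 3.98 (SD, n = 12), from 1063 to 1940 fragments. The 2-day trained muscles held 36.4, 30.7 and 34.3, and the 10-day muscles 20.5, 24.7 and 30.6. The 20-day muscles held 29.2, 29.2 and 26.6, and the 30-day muscles 27.7, 26.1 and 26.3. All 9 muscles of the 3 later times were below every control, as 8.15%, 4.81% and 6.08% of all genes were at 10, 20 and 30 days, while the 2-day muscles overlapped with the controls. The ratios to the control mean were 0.860, 0.642, 0.720 and 0.679.

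The log2 fold change of Smad3 was -0.21 (adjusted p = 0.138) at 2 days. It was -0.63 (adjusted p = 6.1e-05) at 10 days, -0.45 (adjusted p = 0.00260) at 20 days and -0.54 (adjusted p = 0.000691) at 30 days, with an SE of 0.10. The 3 later calls held in each alternative tried, and with animal as a block the values were -0.62, -0.59 and -0.51. The difference between the 2-day and the 10-day trained muscles, -0.42, did not pass (adjusted p = 0.103).

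Smad7, the inhibitory Smad (Smad7-201, chromosome 18, 71395830 to 71424157, plus strand), did not pass the test at any time. It stood at 1.47 to 3.26 rescaled TPM in the controls, with a median of 2.31 and a mean of 2.34 ± 0.519 (SD, n = 12). The trained means were 2.14 ± 0.192, 2.73 ± 1.02, 2.06 ± 0.521 and 1.81 ± 0.217 (SD, n = 3 each). Trained and control muscles overlapped at every time. The log2 fold changes were -0.07, 0.14, -0.12 and -0.24 (SE 0.15), with adjusted p from 0.272 to 0.739, and the sign at 2 days turned on the values as deposited.

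In the contralateral muscles alone, the members did not differ detectably between the 4 times by limma's F test, with 0 of 5 called and adjusted p from 0.640 to 0.880. The count was 0 also at an unadjusted p under 0.05 and by voom, and 7 of 11196 genes (0.0625%) were called. In order of control level the members ran Smad3, Mstn, Acvr2a, Smad7, Fst, Acvr2b and Inhba. The ranges over controls of Mstn and Acvr2a overlapped, as did those of Acvr2a and Smad7, of Smad7 and Fst, of Fst and Acvr2b and of Acvr2b and Inhba, while Smad3 was apart from Mstn.

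The wider pathway was read from a list of 75 further genes, of which 69 were in the table and 58 were tested. At 2 days 14 rose and 4 fell (31% changed), at 10 days 21 rose and 5 fell (44.8%), at 20 days 20 rose and 4 fell (41.4%) and at 30 days 12 rose and 5 fell (29.3%). Over all tested genes 28.9%, 28.9%, 21.4% and 20.6% changed, so the share of the list at 2 days was near that of all genes. The list was chosen with earlier results of these data known. Its higher shares at the later times can therefore not be read as a result about the pathway. The median log2 fold changes of the list were 0.12, 0.18, 0.13 and 0.06. With time-matched controls the 26, 24 and 17 calls at 10, 20 and 30 days became 15, 14 and 9, and without trained replicate 2 the 18 calls at 2 days became 10 and the 24 at 20 days became 12. With animal as a block, 15, 22, 19 and 12 of these calls also passed.

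Among the roles of the list, the transcriptional targets rose most often, with 8, 8, 9 and 6 of 11 higher at the 4 times. None was lower (0 also at an unadjusted p under 0.05). Over all tested genes 15.4%, 15.6%, 11.7% and 11.1% rose, and the list was chosen with earlier results of these data known. Pmepa1 and Tgif1, given below among the adaptors and ligases, were listed under both roles and are counted here too. Junb, a subunit of the AP-1 transcription factor, rose by 2.16, 2.12, 2.78 and 1.59, and Tgfbi, a matrix protein, by 0.78, 0.80, 0.59 and 0.70, its 30-day call lost on the values as deposited (adjusted p = 0.0605). Ccn2, a matricellular protein, rose by 1.62, 1.73, 0.96 and 1.03, the last not called with the block (adjusted p = 0.0580). Id1 and Id3, inhibitors of basic helix-loop-helix factors and targets of bone morphogenetic proteins, rose at 2, 10 and 20 days, with values of 1.05, 0.72 and 1.12 for Id1 and 0.76, 0.63 and 1.04 for Id3, whose 10-day call was lost with the block (adjusted p = 0.116). With the block Id1 also rose at 30 days (0.60, adjusted p = 0.0196). Id2 rose at 20 days by 0.71, a call lost with the block (adjusted p = 0.0528).

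Among ligands and the enzymes that process them, Tgfb1 rose at all 4 times, by 0.89, 1.20, 0.94 and 0.66. Tgfb2 rose at 2 and 10 days, by 0.94 and 0.65. Bmp1, a protease that frees latent myostatin, rose by 0.82 at 10 days and by 0.42 at 20 days, the latter not with the block (adjusted p = 0.152) nor on the values as deposited (adjusted p = 0.0837).

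Among the antagonists and latency proteins, Fstl1, a secreted follistatin-like protein, rose at all 4 times, by 0.93, 1.35, 1.11 and 0.85. Dcn, a matrix proteoglycan that binds TGF-beta, rose by 0.72, 1.15 and 1.08 at 10, 20 and 30 days, and with the block also at 2 days (0.73, adjusted p = 0.00696). Ltbp1, which holds latent TGF-beta in the matrix, rose by 0.35, 0.51, 0.43 and 0.42, with the 20-day call lost with the block (adjusted p = 0.0912) and the 30-day call on the values as deposited (adjusted p = 0.190). Lrrc32, a cell-surface docking protein for latent TGF-beta, rose by 0.57 at 2 days (adjusted p = 0.0565 with the block) and 0.79 at 10 days. Nog, a BMP antagonist, fell by 0.66, 0.79, 0.51 and 0.75, its 20-day call lost with the block (adjusted p = 0.463) and on the values as deposited (adjusted p = 0.0529).

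Among the receptors, Acvr1b, a type I receptor that pairs with the activin type II receptors, fell at every time. It stood at 10.99 ± 1.42 rescaled TPM in the controls and at 7.60, 7.09, 6.61 and 5.63 in the trained groups. Its log2 fold changes were -0.48, -0.56, -0.65 and -0.85 (adjusted p from 0.00141 to 4.41e-06), although the 2-day call was lost on the values as deposited (adjusted p = 0.0521). Acvrl1 and Eng, a receptor and co-receptor of endothelial cells, rose at 10 and 20 days by 0.41 and 0.49 and by 0.52 and 0.49. The 10-day call of Acvrl1 was lost with the block (adjusted p = 0.144) and the 20-day call of Eng on the values as deposited (adjusted p = 0.0672). Tgfbr1 and Tgfbr2 did not pass at any time, with adjusted p from 0.287 to 0.927 and from 0.250 to 0.623.

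Of 5 tested Smads outside the member set, Smad1, which carries BMP signals, rose by 0.44, 0.39 and 0.49 at 2, 10 and 20 days, the 10-day call not with the block (adjusted p = 0.125). Smad2 and Smad4, the partners of Smad3, did not pass on the rescaled values, with values of -0.03, -0.19, -0.28 and -0.34 for Smad2 and -0.26, -0.22, -0.19 and -0.18 for Smad4. On the values as deposited both were called lower at 30 days, Smad2 at -0.52 (adjusted p = 0.00521) and Smad4 at -0.38 (adjusted p = 0.0365). That scale sets every gene lower in the 30-day trained muscles than the rescaled one does.

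Of the adaptors and ligases, Pmepa1, a membrane protein that holds back Smad2 and Smad3, rose by 2.03, 1.31, 0.63 and 0.68, with adjusted p of 0.0536 and 0.159 with the block at 20 and 30 days. Tgif1, a Smad co-repressor, rose by 0.45, 1.41, 0.89 and 0.70. Nedd4l, a ubiquitin ligase for Smads, rose by 0.44, 0.53 and 0.59 from 10 days on, the 10-day call not with the block (adjusted p = 0.0608) and the later calls not on the values as deposited (adjusted p = 0.0514 and 0.115). Wwp1, another ubiquitin ligase, fell by 0.58 at 2 days (adjusted p = 0.0583 with the block) and by 0.58 at 10 days. Ppm1a, a phosphatase that acts on Smad2 and Smad3, fell by 0.33, 0.63, 0.64 and 0.33, the 2-day call being lost with the block (adjusted p = 0.128) and on the values as deposited (adjusted p = 0.179).

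**Figure D4:**
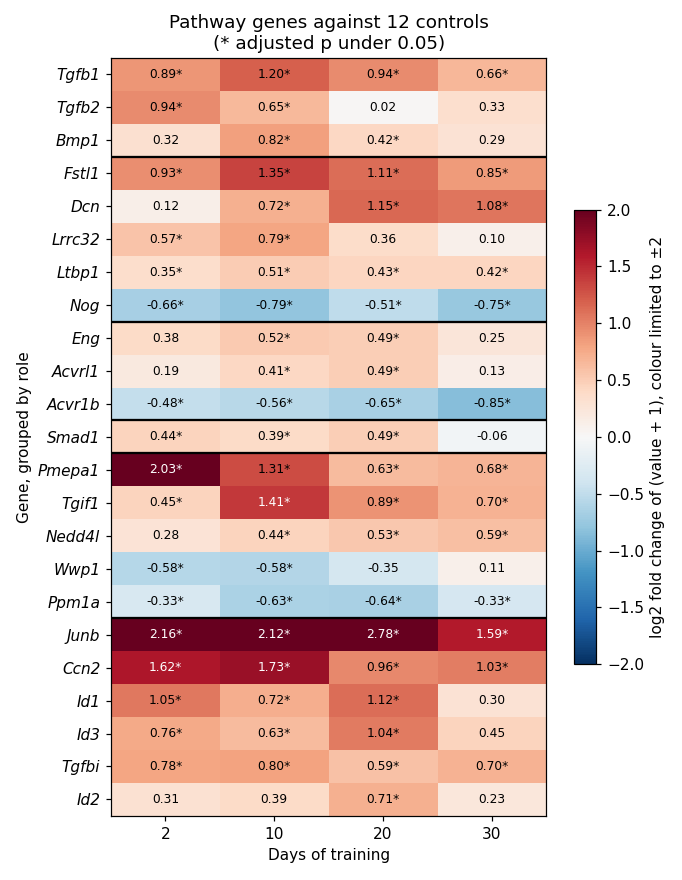
Log2 fold changes of (rescaled TPM + 1) against the 12 controls (cells, with colour limited to ±2) for 23 pathway genes (vertical axis, grouped by role) at each day of training (horizontal axis), an asterisk marking an adjusted p under 0.05. Junb, Tgfb1 and Fstl1 are marked as higher at all 4 times, and Acvr1b as lower at all 4.

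For the 4 members called at any time, genes with the most similar pattern were found by the root mean square difference of the 12 within-rat log2 differences, over 5863 genes. Nearest to Mstn were Hist1h2bq (0.280) and Ccdc149 (0.280). Both were called lower at 20 and 30 days. Neither passed at 2 days (log2 fold change 0.13 and 0.098, limma adjusted p = 0.544 and 0.614), where Mstn rose by 0.75. Nearest to Fst were LOC688672 (0.383), Mllt11 (0.386) and Prr13 (0.404), nearest to Acvr2a were Mpp5 (0.160), Dicer1 (0.168) and Pum2 (0.173), and nearest to Smad3 were Tuba8 (0.182), Polr3d (0.194) and Slc3a2 (0.198).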

How the data were processed

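The authors aligned reads with STAR to Rnor_6.0 in Partek and quantified Ensembl transcripts. Their methods name DESeq2 median-of-ratios normalization, but the deposited values are TPM-type: all 24 columns have the same total, 634431, over 20027 transcripts, and DESeq2 was not rerun. Values were divided here by a median-of-ratios factor per muscle (0.778 to 1.14), summed per gene and tested as log2(value + 1) with limma 3.58.1 in R 4.3.3, in 5 groups (12 pooled controls, 3 trained muscles per time), after a filter of at least 1 in at least 3 muscles. The fit was checked on simulated independent normal values with a small part of the genes changed, at 2 days only. The simulation held no pairing of muscles by rat, so it cannot tell how the pooled fit behaves with such pairing.

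Value times transcript length came out as a whole multiple of 1 number per muscle (tolerance 0.05) for 9418 transcripts (47.0%), including all 7 members, which gave fragments per muscle. The depth of the other transcripts was not recovered. These counts were also tested with limma's voom. Fragments were counted without molecular identifiers, so counting error is only a lower bound on the error of a count.

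The members and gene lists, and the pathway list among them, were chosen with earlier results of these data known. Named pathway genes were those called at 1 or more times, at most 25 by largest change. A few of the genes these rules name are not reported here, though the counts include them. Genes like a member needed a mean of at least 5. Left and right muscles of a rat share an animal number in the labels, so animal was used as a block in an alternative: deviations of own pairs had a median r of 0.174 (12 pairs, 8 above 0.1) against -0.100 between other rats (24 pairs). Further alternatives were the deposited scale, a pseudocount of 0.1, no filter, time-matched controls, the highest transcript per gene and muscles left out in turn. Where 2 muscles remain in a group, the spread is pooled over groups. Start and end are 1-based, and the gene-level table and its comparison columns were not used.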

Additional observations from a re-analysis of the deposited data

Results flagged for a closer look

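The difference in Mstn between trained and contralateral muscle changed between time points when each trained muscle was set against the contralateral muscle of its own rat. The trained minus contralateral difference was lower by 1.47 on the log2 scale at 20 days than at 2 days (log2 change -1.47, SE 0.21, limma adjusted p = 0.00740). It was -1.43 (SE 0.21, adjusted p = 0.00511) for 30 days against 2 days. Different rats were taken at each time: Mstn was higher in the trained muscle in 3 of 3 rats at 2 days, and lower in it in 3 of 3 rats at 20 days and 3 of 3 at 30 days.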

How the results depend on the processing

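Of 260 member values under alternatives, 232 kept their direction and side of the threshold, 22 lost the call, 1 gained it and 5 changed sign. The sign changed for Mstn at 10 days with animal as a block (replicate block) and with time-matched controls (-0.012 in both) and without trained replicate 1 (range on leaving out a replicate -0.13 to 0.45), for Smad7 at 2 days on the values as deposited (0.00070), and for Smad7 at 10 days without trained replicate 2 (range -0.062 to 0.33). The members called at 2 days numbered 3, with 1 by time-matched controls, and those at 10 days numbered 2, with 1 by the replicate block and 1 by time-matched controls. Pathway genes called with time-matched controls numbered 15 at 10 days, 14 at 20 days and 9 at 30 days, against 26, 24 and 17. Member and contrast pairs between trained groups numbered 6 on the values as deposited. Leaving out 1 muscle gave 1 to 3 members at 2 days, 1 to 2 at 10 days, 2 to 3 at 20 and 30 days and 3 to 5 pairs between trained groups. It gave 10 to 24 pathway genes at 2 days (10 without replicate 2), 18 to 25 at 10 days, 12 to 23 at 20 days (12 without replicate 2) and 12 to 17 at 30 days. The cause of these shifts was not tested. The block changed no other member call than those given beside Fst, Acvr2a and Mstn. Voom on the recovered fragments, voom with the block, and no filter with a pseudocount of 0.1 were chosen after seeing the data. With 3 muscles per trained group and at most 8 fragments of Inhba, small changes cannot be seen.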
